A study of Mus musculus with 48 samples.

Results

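A set of 10 genes was followed through the series: Zfp57, a zinc finger protein that guards genomic imprints, and 9 imprinted genes known for their part in growth, namely Igf2, H19, Dlk1, Meg3, Peg3, Plagl1, Mest, Cdkn1c and Grb10. They were taken by symbol from each of the 6 deposited expression tables, and each of the 10 was found among the 24421 gene symbols in every table. The tables hold bulk RNA-seq of mouse astrocytes, the star-shaped glial cells that feed, buffer and shape synapses, from the cortex, the hippocampus and the olfactory bulb. A first part followed postnatal days 1, 7 and 14 (P1, P7 and P14), with 3 libraries per age and region except cortex P14, which had 4. Their labels name no strain, genotype or treatment. The other part compared Gabbr1 cKO with Gabbr1 control at P28, with 4 cKO and 4 control libraries in cortex, 4 and 2 in the hippocampus, and 3 and 3 in the olfactory bulb. Gabbr1 makes part of the GABA-B receptor for the inhibitory transmitter GABA, and a conditional knockout (cKO) lacks the gene only in chosen cells. Tamoxifen is named as the treatment for control and cKO alike in hippocampus, olfactory bulb and 3 of the cortex libraries (2 control, 1 cKO). For the other 5 cortex libraries of P28 no treatment is named. The labels give neither the driver of the deletion nor the way astrocytes were purified, and do not say whether libraries came from separate animals, so p-values measure the spread between libraries.

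An imprinted gene is read from the copy inherited from only a single parent, a choice fixed by DNA methylation that is set in the egg or sperm. After fertilisation, Zfp57 binds the methylated hexamer TGCCGC in imprinting control regions and recruits Trim28, which keeps the methylation in place while the rest of the genome is erased. Paternally read genes such as Igf2, Mest, Peg3, Plagl1 and Dlk1 mostly favour growth or stem cell upkeep. Maternally read genes such as H19 and Cdkn1c mostly restrain growth, as does Grb10. Meg3, a long non-coding RNA, is read from the maternal copy of the same domain as Dlk1. In the mouse brain Igf2 is known as a product of the choroid plexus and the meninges, where it escapes imprinting. The tables do not separate parental copies, so all values are sums over both. Paternally and maternally read are labels from other work, and which copy was read in these libraries was not measured.

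Because Zfp57 reads DNA directly, the promoters of the other genes were searched for its hexamer. RefSeq windows on GRCm38.p6, from 250 bases before to 50 after a transcription start, were found for 8 of the 10 genes, as 17 windows. The letters TGCCGC or, on the other strand, GCGGCA occurred in 6 of these windows, belonging to Mest, Igf2, Plagl1, Grb10 and Meg3. The Mest windows among them overlap and hold the same matches, so that stretch is counted more than once. Among all 32851 windows of the same length 11.6% held the hexamer, and among the 14281 windows with at least 10 CpG dinucleotides 22.5% did. Neither Zfp57's own 3 windows nor the windows of Peg3 and Dlk1 held these letters. In the windows of Igf2 and Grb10 the match began 30 and 24 bases after the start. Shown here are the 250 bases upstream of the start for the 3 genes whose match lies before it, all on the plus strand, with the hexamer in capitals. It begins 242 and 67 bases before the start in Mest, 90 in Plagl1 and 190 in Meg3.
Mest chr6:30737800-30738049: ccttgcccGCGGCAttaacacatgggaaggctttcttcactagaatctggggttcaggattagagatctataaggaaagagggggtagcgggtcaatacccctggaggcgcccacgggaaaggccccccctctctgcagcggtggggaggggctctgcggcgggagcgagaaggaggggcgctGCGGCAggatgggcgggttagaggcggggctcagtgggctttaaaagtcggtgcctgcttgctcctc
Plagl1 chr10:13090582-13090831: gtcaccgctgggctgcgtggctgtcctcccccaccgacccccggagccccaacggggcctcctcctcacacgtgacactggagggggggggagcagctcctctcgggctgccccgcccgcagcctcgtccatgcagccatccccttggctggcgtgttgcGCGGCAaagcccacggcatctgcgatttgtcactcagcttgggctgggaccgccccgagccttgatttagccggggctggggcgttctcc
Meg3 chr12:109540746-109540995: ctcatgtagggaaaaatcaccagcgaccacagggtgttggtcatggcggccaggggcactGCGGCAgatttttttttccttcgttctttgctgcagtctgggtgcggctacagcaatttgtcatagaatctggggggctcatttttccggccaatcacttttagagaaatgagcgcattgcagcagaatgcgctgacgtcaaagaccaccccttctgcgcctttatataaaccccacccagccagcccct
A match is a run of letters and does not show binding, and methylation was not measured.

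The genes lie on 6 chromosomes of GRCm38, the build called mm10 in the submitters' processing notes, with gene bounds from GENCODE M21. Igf2 (chr7:142650766-142666816) and H19 (chr7:142575529-142578143) are neighbours on the minus strand of chromosome 7, which also carries Cdkn1c (chr7:143458339-143461050) and Peg3 (chr7:6703892-6730431). Dlk1 (chr12:109452823-109463336) and Meg3 (chr12:109541001-109571726) share a domain on chromosome 12. The others are Mest (chr6:30723547-30748465), Plagl1 (chr10:13060504-13131694), Grb10 (chr11:11930508-12038683) and Zfp57 (chr17:37001163-37010635). Igf2 overlaps the antisense gene Igf2os, Mest overlaps Copg2 on the other strand, and Meg3 and H19 host small RNAs. Whether counting used strand is not given in the sources used here, so reads of overlapping genes cannot be told apart. H19 was counted as the long RNA only.

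Libraries held between 1773226 and 15008466 reads assigned to genes. Rn45s, a ribosomal RNA precursor, took 13.7% to 38.0% of reads except in hippocampus cKO library 2 and olfactory bulb control library 2 of P28, where it took 0.594% and 0.476%. Gabbr1 had a mean normalized value of 133 in cKO against 1440.2 in control cortex, 239 against 802 in hippocampus and 80.5 against 230.4 in the olfactory bulb, with no overlap between libraries in any region. Of 10 astrocyte markers, at least 8 had more than 3 reads in every library. Their summed value was 22989 to 30244 at P1 and 520400 to 577024 at P14 in cortex, 13580.3 to 15749.8 and 442853 to 476598 in the hippocampus, and 5492 to 7528 and 144176 to 159595 in the olfactory bulb. Oligodendrocyte markers summed to 339 to 393 and 15273 to 26082 in cortex at these ages. The libraries were not free of other cells' RNA: summed over 12 neuronal markers, normalized values ranged over 7862 to 11119.5 at P1 and 291 to 551 at P14 in cortex, over 6699 to 8771 and 451 to 681 in hippocampus and over 15203 to 18643 and 1972 to 3188 in the olfactory bulb, where at P1 the neuronal sum was above the astrocyte sum. The part of these shifts in the differences between ages was not tested. In bulk RNA, fewer cells of a type and less RNA per cell cannot be told apart.

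The comparison of ages asks how astrocytes change over the first 2 postnatal weeks. The 10 genes were selected on measured values of these data, taken here to be those at P1, P7 and P14, so these values are a description and carry no test. Each table was scaled on its own, and differences are log2(normalized value + 1), given with the standard error of the limma fit over all genes of the table. At P14 against P1, 9 of the 10 genes passed the minimum mean of 10 in each region, and the exception was Dlk1. In cortex, 8 of the 9 were lower at P14 with no overlap between libraries, in hippocampus 6 were lower and 1 higher, and in the olfactory bulb 7 were lower. Of all genes tested, 39.6%, 31.5% and 34.9% were lower without overlap in cortex, hippocampus and olfactory bulb, and 23.1% were higher without overlap in hippocampus. The median log2 difference of the 9 genes was -3.84 in cortex, -2.47 in hippocampus and -1.94 in the olfactory bulb, and that of all genes -0.27, -0.29 and -0.24. The cortex median of all genes was 0.012 with TMM factors, 0.022 with quantile normalization, -0.037 with edgeR and -0.016 with DESeq2. In the same order the hippocampus median was -0.26, -0.10, -0.083 and -0.071, and that of the olfactory bulb -0.24, -0.23, -0.047 and -0.039. The differences below are to be read against shifts of this size in every region.

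Zfp57 had the largest log2 difference of the set between P1 and P14 in each region, always lower at P14. In cortex its normalized values were 652, 555 and 431 at P1, 114, 48.7 and 121 at P7 and 10.6, 0, 3.15 and 9.86 at P14. Each age was apart from the others, with a mean 5.77-fold lower at P7 and 92.5-fold lower at P14 than at P1. In hippocampus the libraries read 275, 259 and 418 at P1, 65.2, 76.3 and 104 at P7 and 0, 3.31 and 0 at P14. That last set holds at most 3 reads per library, which makes P14 at least 79.9-fold lower than P1, measured against a floor of 3 reads per library. In the olfactory bulb the P7 libraries still read as at P1, with 332, 343 and 501 at P1, 281, 345 and 529.8 at P7 and 3.98, 6.89 and 0 at P14. P1 and P7 overlapped there, with a difference of -0.049 ± 0.61, and all P14 libraries were far below both, with 5 reads or fewer each. From P7 to P14 the log2 differences were -4.21 ± 0.66 in cortex, -5.64 ± 0.56 in hippocampus and -6.78 ± 0.61 in the olfactory bulb. The neuronal marker sum at P7 was 1817 to 4636 in cortex, 1676 to 2789 in the hippocampus and 9456 to 14913 in the olfactory bulb, below the P1 range in each region. The part of neuronal RNA in the Zfp57 values was not tested.

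**Figure D1:**
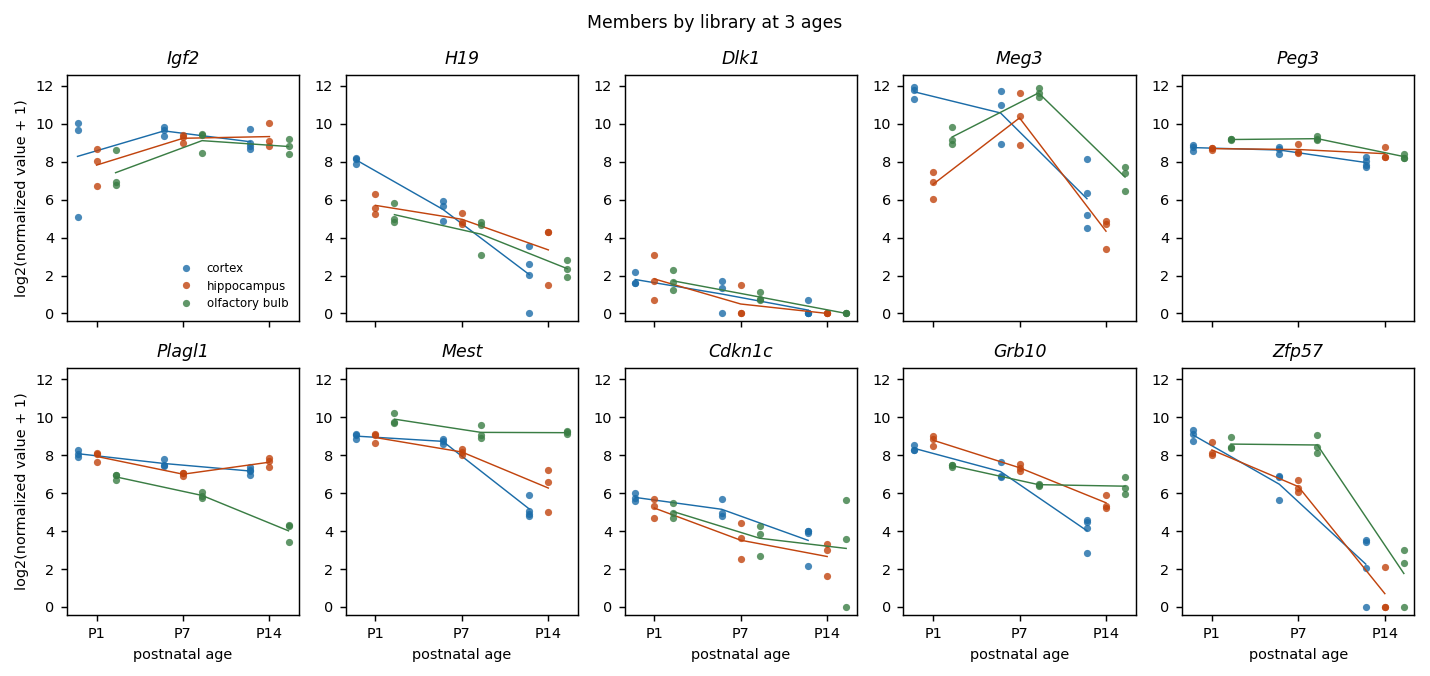
Normalized values of the 10 genes as log2(value + 1) at P1, P7 and P14, each point a library and each line joining the group means of a region. Zfp57, Grb10, H19 and Mest are lower at P14 than at P1 in every region, Igf2 is higher at P14 in hippocampus, and Meg3 is highest at P7 in hippocampus and olfactory bulb.

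Igf2, which encodes a growth factor of the insulin family, was the gene that did not follow the others. In hippocampus it was 409.9, 264 and 106 at P1, 631, 514 and 675 at P7 and 552, 1066 and 448 at P14. All later libraries lay above those of P1, and P14 was 2.65-fold higher than P1, a log2 difference of 1.505 ± 0.43. In the olfactory bulb the values were 386, 119.8 and 107 at P1, 345, 708 and 691 at P7 and 584, 336 and 451 at P14. Of the 6 later libraries 4 were above all P1 libraries, and the highest P1 library overlapped the other 2 (P14 minus P1, 1.38 ± 0.45). Cortex values were 33.5, 1054 and 827 at P1, 808, 919 and 663 at P7 and 457, 409, 852 and 498 at P14. This comparison rests on a single library, cortex P1 library 1. With it the mean was 1.15-fold lower at P14 while the log2 difference was 0.77 ± 0.84, and without it the log2 difference was -0.81.

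Libraries low in Igf2 at P1 were also low in genes of the meninges, the connective tissue sheets around the brain. Summed over 10 meningeal fibroblast markers, the cortex P1 libraries held 59.1, 859 and 726, and library 1 read 0 for decorin (Dcn) and 1.42 for the collagen gene Col1a1, where libraries 2 and 3 read 99.99 and 82.9 for Dcn and 102 and 93.1 for Col1a1. Of the 10 markers, 6 had more than 3 reads in library 1 and 3 were at 0, against 10 and 0 in the others. Cortex P1 also spread from 42.9 to 537 for endothelial and from 83.8 to 510 for mural (vessel wall) markers. These sums were 47.9 to 128 and 147 to 247 in hippocampus P1, and 22.5 to 28.7 and 70.6 to 105 in the olfactory bulb P1. Over all genes, mean chi-square per gene was 37.7 and 38.1 between cortex P1 library 1 and the others, and 9.50 between those. The same order of libraries held for Igf2 and the meningeal sum in hippocampus P1, with sums of 1118, 552 and 260.5. It also held in the olfactory bulb P1, with 662, 262 and 236. At P14 this order was not kept: hippocampus P14 library 1 had a meningeal sum of 68.8, with 4 of 10 markers at 0, and Igf2 at 552. Markers of the choroid plexus, the tissue that secretes cerebrospinal fluid, summed to 8702, 7359 and 4223 in hippocampus P14 against 133, 35.2 and 73.7 at P1. Olfactory bulb P14 summed to 75.5 to 248 over the same list, with 5 to 7 of 10 at 0, and its meningeal sum was 1051 to 1972 against 236 to 662 at P1. How far these tissues carry the Igf2 values was not tested.

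**Figure D2:**
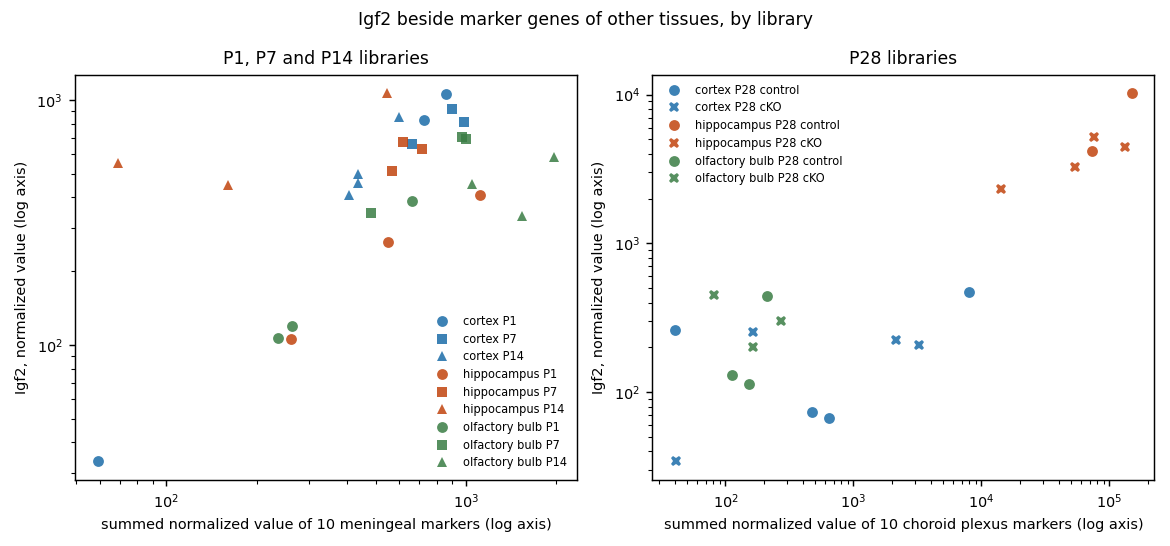
Igf2 against the summed markers of meningeal fibroblasts in the P1, P7 and P14 libraries (left) and of choroid plexus in the P28 libraries (right), normalized values on log axes, a point per library, with colour for the region and shape for age or genotype. The lowest Igf2 value on the left, 33.5 in cortex P1 library 1, goes with the lowest meningeal sum, and on the right all 6 hippocampus libraries stand above the rest on both axes.

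H19, the non-coding RNA read from the maternal copy beside Igf2, was lower at P14 in every region. Cortex values were 285, 295 and 237 at P1, 58.9, 50.3 and 28.6 at P7 and 3.03, 0, 10.7 and 5.19 at P14. No 2 ages overlapped, and P14 was 57.5-fold lower than P1, or 99.4-fold without P14 library 3. Cortex P1 library 1, the lowest of its group in the meningeal marker sum, had an H19 value of 285, between the other 2 libraries. The part of meningeal RNA in the H19 values was not tested. Hippocampus had less H19 at P1, with 78.7, 46.3 and 36.2, and 18.3, 18.7 and 1.79 at P14, 4.16-fold lower. In the olfactory bulb P14 stood at least 7.996-fold lower than P1, with means of 4.29 and 38.0. Each P14 library of the olfactory bulb held 3 H19 reads or fewer.

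Of the set's genes in the Dlk1-Meg3 domain only Meg3 could be followed, because Dlk1, a membrane protein related to Notch ligands, was barely read. No developmental library passed a Dlk1 value of 7.48 (hippocampus P1), and all hippocampus and olfactory bulb P14 libraries were at 0. Meg3 ranged from 9.67 in a hippocampus P14 library to 3963 in a cortex P1 library. Its course differed between cortex and the other regions, a difference that was not tested. Cortex values were 3551, 3963 and 2569 at P1, 2051, 497 and 3459.6 at P7 and 79.4, 35.8, 285 and 21.8 at P14. Here P1 and P7 overlapped and P14 was 31.9-fold lower than P1, or 73.5-fold without P14 library 3. Hippocampus libraries read 123, 63.7 and 176 at P1, 478, 1379 and 3110.0 at P7 and 9.67, 28.7 and 25.1 at P14. All P7 libraries were above both other ages, and the P7 mean was 13.7-fold higher than at P1, with a spread at P7 of 1656 ± 1338 (SD, n = 3). Without P7 library 3 it was 7.69-fold. Within P7 the libraries had the same order for Meg3 and the neuronal marker sum in hippocampus (sums of 1676, 1891 and 2789) and in cortex (3796, 1817 and 4636), and another order in the olfactory bulb (14627, 9456 and 14913), and the part of neuronal RNA in Meg3 was not tested. Olfactory bulb was also highest at P7, with 566, 493 and 901 at P1, 2719.7, 3744 and 3116 at P7 and 167, 86.8 and 211 at P14. Rian, another non-coding RNA of the maternal copy of this domain, is not among the 10 genes. It was picked with earlier results of these data known, so its test is not independent of them. In limma's fit with Benjamini-Hochberg adjustment over all genes, Rian's hippocampus difference from P1 to P7 did not pass (log2 difference 1.29 ± 0.43, adjusted p = 0.0610). Neither did its olfactory bulb difference (0.59 ± 0.41, adjusted p = 0.443), while 18.1% and 10.6% of all genes passed. From P7 to P14 Rian fell by limma in cortex (-1.65 ± 0.34, adjusted p = 0.00128), hippocampus (-2.77 ± 0.43, adjusted p = 7.5e-04) and olfactory bulb (-3.87 ± 0.41, adjusted p = 3.2e-05), as did 31.3%, 17.7% and 26.6% of all genes.

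Peg3 and Plagl1, zinc finger proteins like Zfp57, had smaller log2 differences in cortex than the other genes passing the minimum, except Igf2. Peg3, a paternally read regulator of cell survival, went from 385, 466 and 438 at P1 to 208, 223, 308 and 265 at P14 in cortex and from 582, 586 and 561 to 342, 295 and 290.2 in the olfactory bulb. Both were lower at P14 without overlap, by 1.71-fold and 1.86-fold, while the hippocampus ages overlapped (-0.26 ± 0.18). With TMM factors the cortex difference of Peg3 was -0.51 instead of -0.79, and that of Plagl1 was -0.64 instead of -0.92. Plagl1, a transcription factor that halts the cell cycle and raises Igf2 in other cells, read 268, 239 and 311 at P1 and 164, 146, 143 and 121 at P14 in cortex. In the olfactory bulb it read 101.1, 123 and 124 at P1, 57.1, 52.2 and 65.3 at P7 and 9.94, 19.3 and 18.0 at P14. Ages were apart there, and P14 was 7.36-fold lower than P1. In hippocampus it read 274, 269 and 198 at P1, 118, 131 and 132 at P7 and 204, 230.4 and 165 at P14. All P14 libraries lay above all P7 libraries in hippocampus (0.63 ± 0.20) and below them in cortex (-0.40 ± 0.14) and olfactory bulb (-1.87 ± 0.30), and the difference between regions was not tested.

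Mest, a paternally read enzyme of the hydrolase family, kept the highest level in the olfactory bulb. In cortex it was 467, 531 and 548 at P1, 464, 381 and 434 at P7 and 32.5, 28.9, 59.3 and 26.5 at P14. P7 was 1.21-fold lower than P1 there and P14 11.6-fold lower than P7. In hippocampus the values were 556, 528 and 398 at P1, 259.6, 317 and 289.5 at P7 and 147, 30.9 and 96.7 at P14, each age below the one before. Olfactory bulb libraries read 842, 1221 and 856 at P1, 485, 541 and 784 at P7 and 551, 591 and 611 at P14. There P7 and P14 overlapped, with a difference of -0.016 ± 0.20, and Mest at P14 was 1.67-fold lower than at P1. Mest shares its span with Copg2 on the other strand, and Copg2 passed limma's test as lower at P14 against P1 in cortex and not in the other regions.

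Grb10 and Cdkn1c are the growth restrainers: Grb10 is an adaptor that dampens insulin and IGF receptors, and Cdkn1c (p57) inhibits cyclin-dependent kinases. Cortex Grb10 was 311, 309 and 372 at P1, 198, 117 and 119 at P7 and 22.7, 17.0, 21.4 and 6.23 at P14. Hippocampus followed with 466, 514 and 364 at P1, 157, 188 and 142 at P7 and 36.5, 59.5 and 39.4 at P14. No ages overlapped in either region, and P14 was 19.6-fold lower and 9.91-fold lower than P1. The olfactory bulb went from 168, 179 and 176 to 83.6, 89.4 and 86.6 by P7 and read 61.6, 116 and 76.4 at P14, a difference of -0.081 ± 0.24 over the second week. Cdkn1c was a low gene in development, with 47.2, 52.4 and 63.1 at P1 and 3.40, 13.8, 15.1 and 15.1 at P14 in cortex, 4.57-fold lower. Hippocampus Cdkn1c was 6.24-fold lower at P14, with means of 6.05 and 37.7. In the olfactory bulb the P14 libraries of 49.7, 0 and 11.1 spanned the P1 range of 43.4, 29.5 and 24.8, and leaving out single libraries moved the log2 difference from -3.23 to -0.40. A sum of 10 cell cycle markers went from 1405 to 2088 at P1 to 134 to 309 at P14 in cortex, from 2935 to 3033 to 584 to 1332 in hippocampus and from 1816 to 1896 to 989 to 1927 in the olfactory bulb, where P1 and P14 overlapped.

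Other imprinted genes, which did not define the set, were tested at P14 against P1 with limma over all genes of a table (adjusted p under 0.05). Like the other lists below, they were drawn up with earlier results of these data known, so the tests are not independent of those results. Of all genes, 24.0% rose and 40.3% fell in cortex, 21.0% and 28.5% in the hippocampus, and 24.8% and 31.4% in the olfactory bulb. With TMM factors the cortex split was 3808 higher to 3619 lower genes in place of 2843 to 4765, and with quantile normalization 3766 to 3700. With edgeR and DESeq2 the split was 2688 to 2781 and 2896 to 2997 in the hippocampus (limma, 2430 to 3302), and 3260 to 3139 and 3435 to 3318 in the olfactory bulb, where limma's majority of lower genes (2845 to 3604) turned into a majority of higher ones. Paternally read genes outside the set gave 1 higher and 9 lower of 15 measured in cortex, 1 higher and 7 lower of 15 in hippocampus and 2 higher and 6 lower of 14 in the olfactory bulb. In every region Usp29, the neighbour of Peg3, fell, going in cortex from 84.0 ± 14.7 to 4.12 ± 2.73 (mean ± SD, log2 difference -4.21 ± 0.51, adjusted p = 8.4e-06). Hippocampus P14 libraries held no Usp29 read. Also lower in all 3 regions were Kcnq1ot1, the non-coding RNA of the Cdkn1c domain (from 923 ± 191 to 49.4 ± 45.3 in cortex, limma adjusted p = 4.2e-06), the phosphatase gene Inpp5f (from 863 ± 105 to 271 ± 25.3, adjusted p = 2.8e-07) and Ndn, a growth suppressor of neurons (from 182 ± 27.7 to 63.4 ± 4.48, adjusted p = 8.2e-07), and Peg10, a gene of retroviral origin needed in the placenta. The median log2 difference of the paternally read genes was -1.52, -1.04 and -1.02, in the order cortex, hippocampus, olfactory bulb.

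Maternally read genes gave 1 higher and 7 lower of 10 measured in cortex, 2 higher and 4 lower of 11 in hippocampus and 2 higher and 2 lower of 11 in the olfactory bulb. With TMM factors the cortex split became 3 higher and 4 lower, and with quantile normalization the hippocampus split became 1 higher and 4 lower. The olfactory bulb count of 4 became 7 without P14 library 1 (4 higher, 3 lower). Their median was -0.58, 0.063 and 0.008. Over all genes the lower share was 40.3%, 28.5% and 31.4% and the higher share 24.0%, 21.0% and 24.8%, in the same order of regions. Cd81, a tetraspanin, rose in all regions, in the olfactory bulb from 377 ± 23.2 to 2848 ± 87.0 (limma adjusted p = 8.2e-08). Rian and Igf2r fell in all regions. Igf2r encodes the receptor that clears Igf2 from the cell surface and went from 267 ± 63.2 to 114 ± 27.7 in hippocampus (-1.21 ± 0.24, limma adjusted p = 0.00124).

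Genes of imprint upkeep, the partners of Zfp57 among them, were mostly lower at P14. Of this list, 0 higher and 12 lower of 14 measured passed limma's test in cortex, 1 higher and 8 lower of 15 in hippocampus and 1 higher and 10 lower of 15 in the olfactory bulb. The list's median was -0.73, -0.64 and -1.03. Among all genes tested, 40.3%, 28.5% and 31.4% were lower and 24.0%, 21.0% and 24.8% higher, in the same order of regions. Dnmt1, the methyltransferase that copies methylation at replication, went from 391 ± 28.9 to 99.5 ± 22.7 in cortex (-1.99 ± 0.17, adjusted p = 2.6e-07). Trim28, the corepressor that Zfp57 recruits, had log2 differences of -1.73 ± 0.21 in cortex, -1.09 ± 0.28 in hippocampus and -1.69 ± 0.21 in the olfactory bulb, with limma adjusted p of 6.5e-06, 0.00692 and 4.9e-05. Zfp445, the other zinc finger protein known to hold imprints, was -0.87 ± 0.098, -1.21 ± 0.21 and -1.30 ± 0.17, and Ctcf, the insulator protein of the Igf2-H19 control region, was -0.88 ± 0.13, -1.16 ± 0.13 and -1.03 ± 0.22. At P14 these genes were still read at a higher level than Zfp57, with Trim28 at 78.4 and Zfp445 at 254 in cortex where Zfp57 was at 5.90. The single gene of the list that rose was Dnmt3a, in hippocampus (limma adjusted p = 3.0e-05) and olfactory bulb (adjusted p = 0.0385).

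In the IGF axis, 1 higher and 8 lower of 12 measured genes passed in cortex, 3 higher and 7 lower of 13 in hippocampus and 3 higher and 7 lower of 13 in the olfactory bulb. The median was -1.09, -1.20 and -0.69. The shares of all genes that were lower were again 40.3%, 28.5% and 31.4%, and those higher 24.0%, 21.0% and 24.8%. Igf1r, the receptor through which Igf2 signals, went from 784 ± 88.8 to 320.4 ± 37.0 in cortex (-1.29 ± 0.13, limma adjusted p = 1.1e-06), and fell in the other regions as well (-1.11 ± 0.16 and -1.95 ± 0.29). Its adaptor Irs1 (-0.89 ± 0.15, -2.37 ± 0.24 and -1.21 ± 0.24 in the 3 regions in that order) and Igf2bp3, which binds Igf2 messenger RNA (-2.38 ± 0.19, -3.40 ± 0.77 and -1.94 ± 0.55), fell too. Igfbp2, a secreted IGF carrier, rose in all 3 regions, in the olfactory bulb from 105 ± 20.5 to 731 ± 88.2 (limma adjusted p = 2.6e-06). Igf2r is on this list and on that of maternally read genes. The genes of these 4 lists were drawn up with earlier results of these data known.

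**Figure D3:**
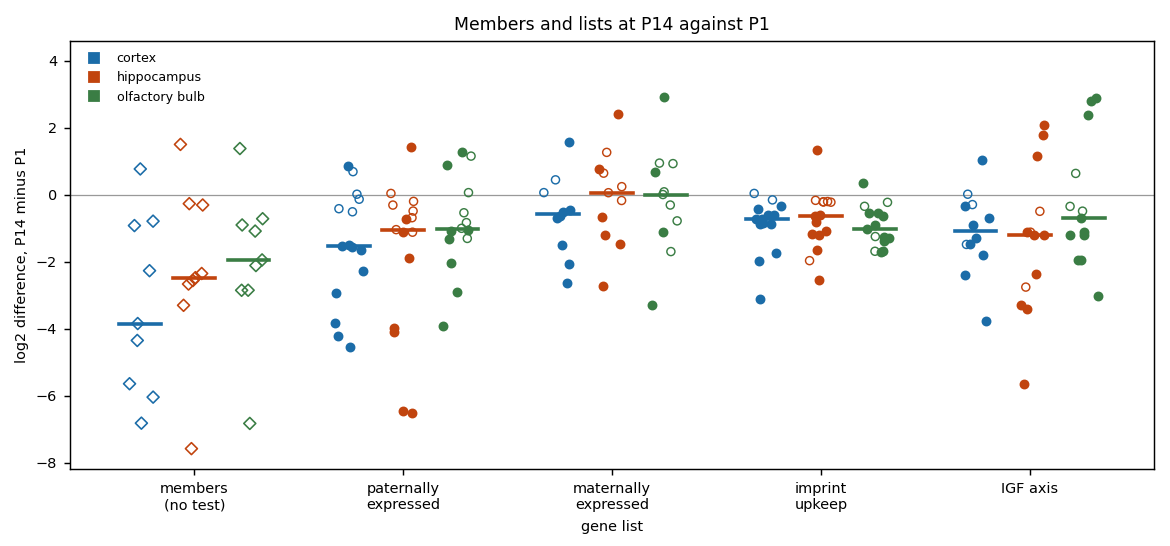
Log2 differences at P14 against P1 for the genes that passed the minimum mean, in 4 lists of other genes (filled, adjusted p under 0.05 by limma; open, not) and in the set itself (diamonds, no test), with a bar at each median. The medians of the set, -3.84 in cortex, -2.47 in hippocampus and -1.94 in the olfactory bulb, are given for description only.

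Levels were set side by side across tables as RPM, the reads of a gene scaled to the same total of assigned reads in each library with Rn45s left out, as a description, since the tables were scaled apart. Zfp57 was highest in cortex P1 (186 ± 38.2, SD), olfactory bulb P1 (167 ± 40.005), olfactory bulb P7 (166 ± 52.7) and hippocampus P1 (133 ± 39.0), which overlapped from each to the next and lay clear of hippocampus P7 (31.5 ± 6.54). Every group of P14 or P28 was at 7.10 or less. Mest led in the olfactory bulb P1 (417 ± 98.8), and the other olfactory bulb groups, between 199.7 and 332, overlapped the group below each. Its cortex P14 and P28 groups had means between 9.11 and 10.2. H19 stood alone in cortex P1 (92.6 ± 10.7), clear of hippocampus P1 (22.6 ± 9.82), and from there each group overlapped the next. Grb10 was highest in hippocampus P1 (187 ± 28.4), then cortex P1 (112 ± 12.01), each clear of the next, and lowest in cortex P14 (4.37 ± 1.98). Meg3 ranged from 1385 ± 226 in the olfactory bulb P7 to 5.91 ± 2.80 in hippocampus P14, and its 5 highest groups lay clear of the other 10. Peg3 ran from 258 ± 15.5 in the olfactory bulb P7 to 64.8 ± 12.3 in cortex P14. Plagl1 ran from 157 ± 24.3 in hippocampus P28 control to 5.40 ± 1.79 in the olfactory bulb P14.

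Igf2, Cdkn1c and Plagl1 had another order, led by the hippocampus at P28. For Igf2 and Cdkn1c the hippocampus P28 groups lay clear of all others, while Plagl1 in hippocampus cKO (130 ± 43.3) overlapped hippocampus P1 (104 ± 17.2). Igf2 was 2346 ± 1330.2 RPM in hippocampus control and 1213 ± 531 in cKO, and no other group passed the 260.0 ± 41.1 of cortex P7. The 13 other groups each overlapped the next in that order, down to 80.2 ± 47.0 in cortex P28 cKO. Cdkn1c was 151 ± 39.997 in hippocampus control, 65.5 ± 34.9 in cKO and at most 18.4 ± 2.71 elsewhere (cortex P1). In hippocampus P14, by contrast, Igf2 was 193 ± 92.2 and Cdkn1c 1.69 ± 0.965. The choroid plexus marker sum, each within its own table, was 4223 to 8702 in hippocampus P14. It was 72374 to 148797 in hippocampus P28 control and 14258 to 132275 in cKO. The part of choroid plexus RNA in these levels was not tested. Per kilobase of exon the order of the genes within a group also turned over: in cortex P1 Meg3 led with 63.2 RPM per kilobase, before Zfp57 (49.1), Mest (44.4), Igf2 (37.9) and H19 (37.6), in the olfactory bulb P1 Mest led with 106 before Zfp57 with 44.2, and in hippocampus P28 control Igf2 led with 409.9 before Cdkn1c with 74.0.

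Genes with the pattern most like Igf2 and most like Zfp57 were sought over the 28 developmental libraries, by the root mean square difference of log2 values centred within each table, among 10838 genes with a mean of at least 10 in all 3 tables. Among the closest to Igf2 were Slc13a4 (0.577), Aebp1 (0.617), Apod (0.634) and Dab2 (0.736), against a median of 1.26 over all genes. Closest to Zfp57 were Mir124a-1hg (1.00), Stk32b (1.06), L1cam (1.07), Celsr3 (1.08) and Lppr3 (1.15), against a median of 3.13. Dlk1 was too low for such a search.

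The comparison of genotypes at P28 asks how Gabbr1 cKO libraries differ from control libraries. Whether P28 values also entered the choice of the 10 genes is not known, so the tests below may not be independent of that choice. None of the 10 genes passed limma's test with Benjamini-Hochberg adjustment in any region: 0 of 6 measured in cortex, 0 of 8 in the hippocampus and 0 of 7 in the olfactory bulb, with smallest adjusted p of 0.9999, 0.936 and 0.877. Of all genes, 0.00982% were called in cortex, which was Gabbr1 alone, 0% in hippocampus and 0% in the olfactory bulb. Gabbr1 itself, lower in every cKO library, did not pass limma's test in hippocampus (-1.84 ± 0.39, adjusted p = 0.936) or the olfactory bulb (-1.48 ± 0.33, adjusted p = 0.877), so in these regions a count of 0 does not show that a gene was unchanged. At an unadjusted p under 0.05 the counts over all genes were 221, 296 and 349, and 1, 1 and 0 of the set. edgeR on recovered reads called 1, 0 and 0 genes and DESeq2 1, 1 and 13, with no gene of the set among them. Dlk1 and H19 stayed under the minimum mean in all 3 regions, Cdkn1c in cortex and olfactory bulb, and Zfp57 in cortex.

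Hippocampus showed the set's largest log2 differences with no overlap between libraries. Cdkn1c was 560.0 and 367 in control and 167, 104, 319 and 230.3 in cKO libraries. All 4 cKO libraries were lower, with a log2 difference of -1.26 ± 0.44 (95% interval -2.25 to -0.26, unadjusted p = 0.0185 and adjusted p = 0.936 by limma). Mest was 422 and 229.5 in control and 144, 10.1, 226 and 220.2 in cKO, with an interval of -4.13 to 0.69. Zfp57 was 21.1 and 22.2 in control and 6.78, 0, 2.40 and 11.6 in cKO, with an interval of -5.37 to 0.55. For both, all cKO libraries were below both controls. These are 3 of the 8 measured genes, and 7.92% of all genes were lower in hippocampus cKO without overlap. Zfp57 passed the minimum mean of 10 only through its controls, with a mean of 21.7 there and 5.18 in cKO. Igf2 was 10274 and 4202 in control and 3286, 2329.9, 5207 and 4474 in cKO, where control library 2 lay within the cKO range (interval -1.85 to 0.16). Grb10 read 282 and 155 in control and 100.7, 136, 185 and 150.2 in cKO (interval -1.44 to 0.28), and the groups overlapped. Igf2r read 583 and 252 in control and 233, 162, 176 and 299 in cKO. Peg3, Plagl1 and Meg3 overlapped between genotypes, with intervals of -0.85 to 0.29, -1.14 to 0.73 and -1.98 to 1.78.

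The hippocampus libraries also differed in choroid plexus RNA. The 10 choroid plexus markers, all above 3 reads in all 6 libraries, summed to 148797 and 72374 in control and 53588, 14258, 76342 and 132275 in cKO. Transthyretin (Ttr), the main secreted protein of that tissue, read 127692 and 61859.8 in control and 46712, 9617, 64702 and 121474 in cKO, and Klotho (Kl) 7261 and 3213 and 2477, 852, 3486 and 3131. Control library 1 was the highest and cKO library 2 the lowest for Igf2, Cdkn1c, Mest, Ttr and Kl alike. The part of choroid plexus RNA in the differences of Igf2 and Cdkn1c was not tested. Without cKO library 2, which also had the low Rn45s share, the log2 difference of Igf2 was -0.63, of Cdkn1c -0.97 and of Mest -0.69 in place of -0.85, -1.26 and -1.72.

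**Figure D4:**
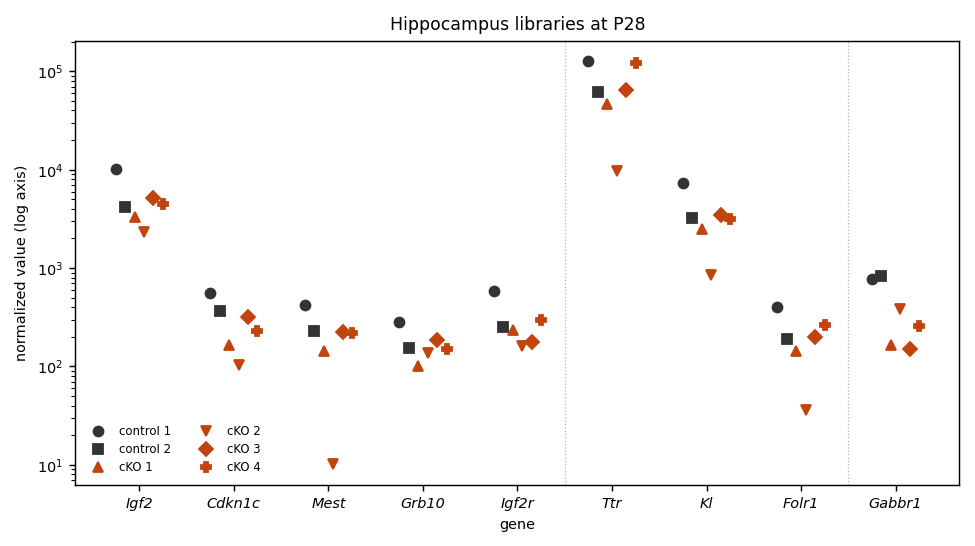
Normalized values (log axis) in the 6 hippocampus libraries of P28 for Igf2, Cdkn1c, Mest, Grb10 and Igf2r, for the choroid plexus genes Ttr, Kl and Folr1, and for Gabbr1, with control libraries in black and cKO in red. Control library 1 is the highest and cKO library 2 the lowest for Igf2, Cdkn1c, Mest and Kl, and Gabbr1 is lower in all 4 cKO libraries.

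In cortex at P28, Peg3 was 161, 117, 167 and 188 in control and 293, 253, 288 and 172 in cKO. In cKO 3 libraries were above all controls and library 4 was not, with a log2 difference of 0.66 ± 0.24 (interval 0.14 to 1.17, unadjusted p = 0.0160 and adjusted p = 0.9999 by limma). Control libraries 3 and 4 and cKO library 4 are the 3 whose labels name tamoxifen. They are also the cortex libraries of the later deposit round, so label and round cannot be told apart. Within label sets the Peg3 difference was 1.01 without and -0.043 with that label. Igf2 was 66.6, 73.6, 262 and 469 in control and 209, 223, 34.4 and 254 in cKO. All 3 tamoxifen-labelled libraries, at 254 to 469, were above the other 5, at 34.4 to 223, and the difference was 0.74 among the 5 and -0.46 among the 3. The same 3 libraries held 71.3, 51.2 and 60.4 for the meningeal gene Dcn, where the other 5 ranged from 1.06 to 4.196. Grb10 likewise was 20.8 to 24.0 in the 3 and 1.17 to 9.44 in the 5, and Zfp57 2.77 to 6.72 in the 3 and 0 in each of the 5. With 1 cKO library on the tamoxifen-labelled side, these within-set values have no test, and what sets the label sets apart was not tested.

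In the olfactory bulb at P28 every measured gene overlapped between genotypes, where of all genes 5.30% were higher and 4.71% lower without overlap. Meg3 was 371, 301 and 197 in control and 60.2, 361 and 77.5 in cKO, a log2 difference of -1.23 ± 0.58 (interval -2.50 to 0.049, unadjusted p = 0.0579 and adjusted p = 0.877 by limma). The cKO libraries 1 and 3 were below all controls and library 2 was not. Mest read 553, 866 and 959 in control and 878, 867 and 882 in cKO (interval -0.36 to 0.72). Igf2 was 131, 114 and 443 in control and 448, 201 and 303 in cKO (interval -0.41 to 1.76). The intervals of Plagl1 (-3.89 to 0.51) and Zfp57 (-3.05 to 1.60) were the widest of that region. With 2 to 4 libraries per genotype, changes within these intervals would have been missed. None of the 4 lists of other genes held a gene called at P28 in any region.

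**Figure D5:**
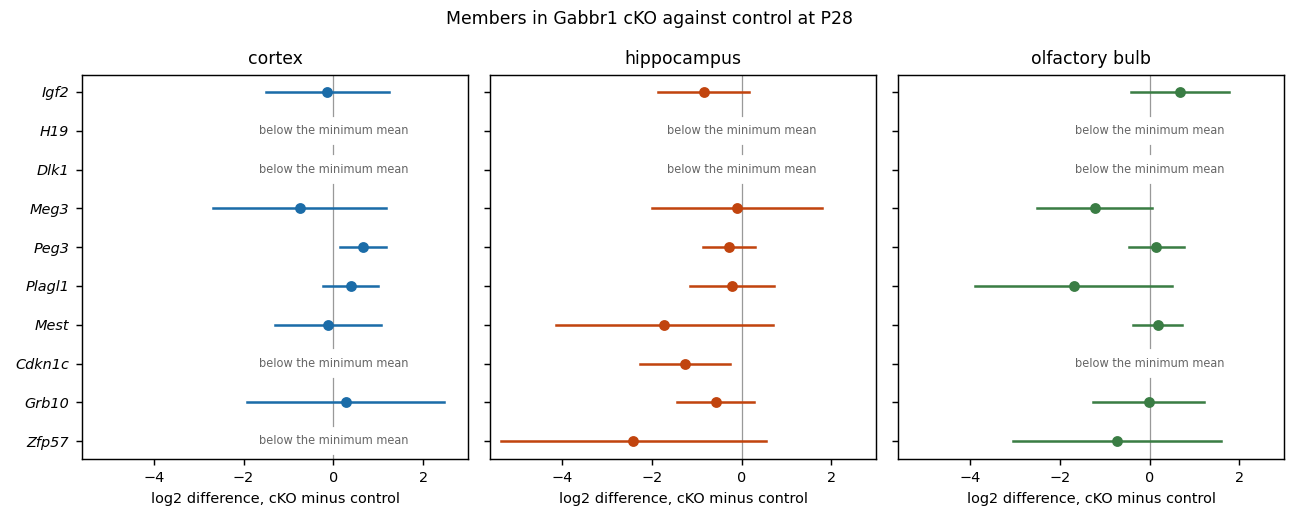
Log2 difference between cKO and control at P28 for each gene of the set, a panel per region, with dots for the limma estimate and bars for its 95% interval. The intervals include 0 except for Peg3 in cortex and Cdkn1c in hippocampus, neither of which passed the test after adjustment.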

How the data were processed

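Values came from 6 tables, with 1 region and either the 3 ages or the P28 genotypes in each. The authors deposited a normalized signal per gene: whole reads divided by a factor per library, since 100% of values came out whole once it was divided out (a weak check for olfactory bulb P28 cKO library 2, whose factor is near 1). The submitters' processing notes name STAR 2.5.0a, DESeq2 1.20.0, FastQC, MultiQC and mm10, without roles. The counting program and annotation are not given in the sources used here. Replicates differed beyond sampling noise (mean chi-square per gene at least 7.67), so each counted as 1 library.

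Genes with a mean of at least 10 in a table were fitted with limma 3.58.1 in R 4.3.3 (lmFit, eBayes with trend) on log2(value + 1), which understates changes of low genes, with Benjamini-Hochberg adjustment over the table and a threshold of 0.05. The procedure was tested on simulated data. Alternatives were a pseudocount of 8, no filter, TMM scaling, quantile normalization, edgeR 4.0.16 and DESeq2 1.42.0 on the recovered reads, the deposit round as a covariate in cortex P28, and leaving out libraries. Beside the 10 genes, the text names up to 4 genes per list and direction called at P14 against P1 in all 3 regions, by their smallest difference, and, of the 5 genes most like Igf2 and like Zfp57, all but 1, which is not reported here. Peg10, Dnmt3a, Copg2, Ttr, Kl, Dcn, Col1a1 and Folr1 were named after their values were seen. Members and lists were chosen with earlier results of these data known.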

Additional observations from a re-analysis of the deposited data

Results flagged for a closer look

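In 4 of 29 sets of 4 libraries examined (a gene in a group), the library farthest from the others stood apart from its nearest neighbour by more than the 95% critical share of the group's range (0.829), where chance gives about 1 in 20. Cdkn1c in cortex P14 library 1 was 3.40, against 13.8, 15.1 and 15.1 in the others. Meg3 in cortex P28 control library 4 was 79.5, where the others were at most 20.1. Igf2 in cortex P28 cKO library 3 was 34.4, where the others were at least 209. Mest in hippocampus P28 cKO library 2, the library with the low Rn45s share, was 10.1, where the others were at least 144.

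Plagl1 moved in opposite directions between regions from P7 to P14. The log2 difference was 0.63 in hippocampus, with every P14 library above every P7 library, and -0.40 in cortex and -1.87 in the olfactory bulb, with every P14 library below. The difference between regions was not tested.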

How the results depend on the processing

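Over 414 alternative values of the 27 P14 against P1 differences of the set, 399 stayed within the spread, 15 moved and none changed sign except Igf2 in cortex without P1 library 1, which was no called value. At P28 no gene of the set was called under any alternative run, and 27 of 259 alternative values had the opposite sign, for 8 of 21 differences. None of these differences was called, and the cause was not tested. Igf2 in cortex was 0.31 with the deposit round as a covariate and ranged from -0.55 to 0.54 when single libraries were left out. In cortex edgeR and DESeq2 gave 0.23 and 0.23 for Meg3, 0.17 and 0.16 for Mest and -0.14 and -0.15 for Grb10. In hippocampus they gave 0.61 and 0.59 for Meg3, which was 0.33 without the low-Rn45s library. Without that library of the olfactory bulb, Peg3 was -0.0024 and Grb10 0.55, and TMM scaling gave 0.026 for Grb10. Leaving out single libraries gave ranges of -0.60 to 0.15 (Mest) and -0.33 to 0.65 (Grb10) in cortex, -0.82 to 0.33 (Meg3) in hippocampus, and -0.0024 to 0.36 (Peg3), -0.059 to 0.34 (Mest) and -0.69 to 0.55 (Grb10) in the olfactory bulb.

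Of 260 values of counts, 252 stayed within 1.5 times. The cortex count of maternally read genes called was 13 without the filter, in place of 8, and that of olfactory bulb ranged from 4 to 7 without single libraries, the 7 coming without P14 library 1. At P28 the genes called in hippocampus numbered 7 without the filter, 1 with DESeq2, 1 without the low-Rn45s library and 0 to 1 without single libraries (1 without cKO library 2, the same library), and those in the olfactory bulb 13 with DESeq2 and 0 to 1 without single libraries (1 without control library 3), in place of 0 in both. The 1 gene called in cortex without the filter was higher in cKO, and so was not Gabbr1. No paired analysis was possible because the labels give no replicate numbers that groups share. Depth limited Dlk1, H19 and Zfp57 at P14 and P28, where many libraries held 0 to 3 reads. The tables were scaled separately, and levels were not tested between regions. Differences between ages were not tested between regions either.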
